A study of Mus musculus with 6 samples.

Results

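The myogenic regulatory factors are 4 related transcription factors, Myod1, Myf5, Myog and Myf6. They were taken by name from the deposited expression table, which held all 4 of them among 17558 genes. The table comes from C2C12, an immortalized line of mouse myoblasts, grown to sub-confluence and then moved to medium with horse serum and an insulin-transferrin-selenium supplement for 48 h to induce differentiation. There were 3 groups of 2 libraries each. Control cells, of WT genotype in the labels, carried a stable construct with a scrambled hairpin RNA (shScr), cells labelled Pkm1 Knockdown a hairpin against the Pkm1 isoform of pyruvate kinase (shPkm1), and cells labelled Pkm2 Knockdown a hairpin against the Pkm2 isoform (shPkm2). The labels give no number of clones or of hairpins per target, and do not say whether the libraries of a group came from separate cultures. The p-values below therefore measure the spread between these libraries, which may be technical.

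The 4 factors share a basic helix-loop-helix domain, pair with widely expressed E proteins, and bind a short DNA element called the E-box in the regulatory regions of muscle genes. Myod1 and Myf5 are the factors of committed, dividing myoblasts. Myog is switched on when myoblasts leave the cell cycle and is needed to form multinucleated fibres, and Myf6 (also called Mrf4) is best known from later stages and mature fibres. In cultured myoblasts Myf5 is usually high during growth and declines as the cells differentiate.

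In GRCm38, the build matching the mm10 named in the submitters' processing notes, each factor has 3 exons in the 1 transcript annotated by GENCODE. Myod1 (NCBI gene 17927) lies on chromosome 7 from 46376474 to 46379092 and Myog (17928) on chromosome 1 from 134290004 to 134292548, both on the plus strand. Myf5 (17877) spans 107482908 to 107486927 and Myf6 (17878) spans 107492848 to 107494723 on the minus strand of chromosome 10. The pair are neighbours, 5920 bases apart.

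The sequences upstream of Myog and Myf5 are shown because these genes moved in opposite directions, as described further on. Each line gives the 250 bases before the RefSeq start site on the gene's own strand, chr1:134289754-134290003 on the plus strand for Myog and chr10:107486135-107486384 on the minus strand for Myf5, in GRCm38.p6. The gene span of Myf5 given above also holds a predicted transcript with an earlier start, so its window lies inside that span. Capitals mark E-boxes (CANNTG) and the MEF3 site (TCAGGTTTC), an element found in promoters of muscle genes.
Myog: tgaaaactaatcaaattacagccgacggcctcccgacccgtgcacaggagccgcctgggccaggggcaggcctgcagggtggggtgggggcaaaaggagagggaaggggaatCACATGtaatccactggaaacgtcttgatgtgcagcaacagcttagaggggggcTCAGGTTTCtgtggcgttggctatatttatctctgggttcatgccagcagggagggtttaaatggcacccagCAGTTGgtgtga
Myf5: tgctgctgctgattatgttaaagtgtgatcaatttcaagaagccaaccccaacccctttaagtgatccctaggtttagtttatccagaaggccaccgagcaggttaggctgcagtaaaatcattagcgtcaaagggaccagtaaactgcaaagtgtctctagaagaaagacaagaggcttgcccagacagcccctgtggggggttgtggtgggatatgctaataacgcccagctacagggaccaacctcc

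The Myog window held 2 E-boxes, CACATG at positions -138 to -133 and CAGTTG at -12 to -7 from the start site, and 1 MEF3 match at -84 to -76. The Myf5 window held no match to either motif. Over 32851 mouse promoter windows of the same length, searched on both strands, 66.2% held an E-box and 0.387% the MEF3 letters. These are matches of letters only. The promoters of Myod1 and Myf6 were not analysed here.

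The depth ran from 18216896 to 19796036 estimated counts per library, and libraries of a group differed by more than sampling noise (chi-square per degree of freedom 6.16 to 32.3, largest in shScr). The targeted gene was examined first. In the deposited TPM (abundance scaled to transcript length and library total), the Pkm1 isoform stood at 546 and 589 in shScr, 243 and 218 in shPkm1 and 254.1 and 254.2 in shPkm2. The Pkm2 isoform stood at 1073 and 1517 in shScr, 1278 and 1379 in shPkm1, and 2700 and 2630 in shPkm2. It was thus not lower in the libraries that name it, which are therefore named by their label below, as the shPkm2-labelled libraries. The gene as a whole had a log2 fold change against shScr of -0.63 in shPkm1 (edgeR adjusted p 0.00107) and 0.20 in the shPkm2-labelled libraries (edgeR adjusted p 0.198). The shPkm1 call was lost on deposited TPM (limma, log2 fold change -0.24, adjusted p 0.121 to 0.124), and the second became a rise with library totals (0.52), without shScr library 2 (0.30) or on TPM (0.66). As a check of the line, the muscle markers Des and Cdh15 were at 681 TPM or more and 173.5 TPM or more in every library. Of the other genes set for this check, Itga7 was at 139.8 TPM or more in every library. Vim was higher in both Pkm hairpin groups, with 1703 and 2091 TPM in shScr, 4108 and 4157 in shPkm1 and 6311 and 6076 in the shPkm2-labelled libraries. Genes of the contractile apparatus in these cells did not stay at one level: Tnnt3, a fast troponin T, had 3607 and 2641 TPM in shScr, 907 and 1013 in shPkm1 and 28.2 and 23.7 in the shPkm2-labelled libraries, and the perinatal myosin gene Myh8 had 36.2 and 14.6, 3.15 and 3.59, and 0.10 and 0.12.

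Of the 4 factors, Myog and Myod1 were lower than in the control in both Pkm hairpin groups, by under 2-fold in shPkm1 and by 40.8-fold and 4.67-fold in the shPkm2-labelled libraries. Myf5 went the other way and was 3.33-fold higher in the shPkm2-labelled libraries. Myf6 was near the limit of detection everywhere. As a result Myog, the most abundant factor in the control, was no longer the most abundant in the shPkm2-labelled libraries, where Myod1, Myog and Myf5 lay close together.

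**Figure D1:**
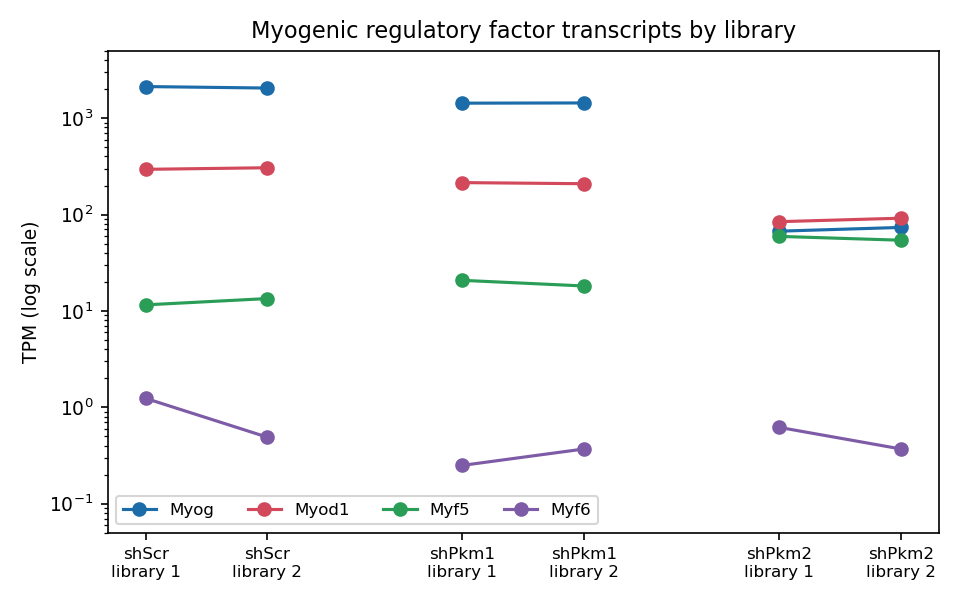
TPM of each factor (vertical axis, log scale) in each of the 6 libraries (horizontal axis), with a line joining the 2 libraries of a group. Myog lies between 1430 and 2126 TPM in shScr and shPkm1 and between 67.2 and 73.5 TPM in the shPkm2-labelled libraries, just under Myod1 and above Myf5.

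Myod1, which can by itself convert other cell types towards muscle, had 294 and 306 TPM in shScr, 214 and 209 in shPkm1, and 84.3 and 91.6 in the shPkm2-labelled libraries. The groups did not overlap, with the control highest and the shPkm2-labelled libraries lowest. In the edgeR fit across all 12643 tested genes, its log2 fold change against shScr was -0.90 in shPkm1 (SE 0.104, edgeR adjusted p 8.09e-06) and -2.22 in the shPkm2-labelled libraries (SE 0.109, edgeR adjusted p 1.19e-09). Between the Pkm hairpin groups it was -1.33 (95% interval -1.56 to -1.10, edgeR adjusted p 2.71e-07).

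Myog had 2126 and 2051 TPM in shScr, 1430 and 1437 in shPkm1, and 67.2 and 73.5 in the shPkm2-labelled libraries. The shPkm2-labelled libraries stood far below all others, and the shPkm1 pair lay below the control pair without overlap. By TPM it ranked 80 and 81 among all genes in the control libraries, 114 and 117 in shPkm1, and 2155 and 1909 in the shPkm2-labelled libraries. Its log2 fold change against shScr was -0.94 in shPkm1 (95% interval -1.21 to -0.66, edgeR adjusted p 3.19e-05). In the shPkm2-labelled libraries it was -5.35 (95% interval -5.68 to -5.02, edgeR adjusted p 1.06e-11), and 199 of the 12643 tested genes had a more negative value. Set against shPkm1 directly, the value was -4.41 (SE 0.147, edgeR adjusted p 6.90e-11).

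Myf5 had 11.6 and 13.4 TPM in shScr, 20.8 and 18.1 in shPkm1, and 59.4 and 54.1 in the shPkm2-labelled libraries. Here the control was lowest, and again no groups overlapped. Its log2 fold change in the shPkm2-labelled libraries was 1.74 against shScr (95% interval 1.51 to 1.96, edgeR adjusted p 9.39e-09) and 1.48 against shPkm1 (95% interval 1.26 to 1.71, edgeR adjusted p 6.34e-08). In the first of these comparisons 656 of the tested genes had a higher value.

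Whether Myf5 was called higher in shPkm1 differed between settings. In the edgeR fit its log2 fold change there was 0.25 (SE 0.109, edgeR adjusted p 0.0588), which did not pass the threshold of 0.05. With library totals in place of the TMM composition factor it was 0.45 (edgeR adjusted p 0.00570), but the median of all tested genes then also shifted by 0.19. On log2(TPM + 1) it was 0.60 (limma adjusted p 0.00173), with the median of all genes at 0.31. With the same TMM scaling but only genes averaging at least 50 counts, it was 0.26 (edgeR adjusted p 0.0493), and with DESeq2 it was 0.25 (adjusted p 0.142). The direction was the same in each, while the call was not. On the same log2(TPM + 1) scale the shPkm1 values of Myod1 and Myog were smaller than in the edgeR fit, -0.50 and -0.54 (limma adjusted p 0.000738 and 0.000461), and still called. Most Myf5 counts were assigned to the curated transcript NM_008656.5 (283 to 1302 per library) and few to the predicted transcript XM_006513319.2 (3.94 to 59.2).

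Myf6 had 18 and 7 counts in shScr, 3 and 5 in shPkm1, and 8 and 5 in the shPkm2-labelled libraries, or 1.24, 0.49, 0.25, 0.37, 0.62 and 0.37 TPM in that order. The shPkm2-labelled libraries overlapped both other groups, shPkm1 lay below the control, and the control pair differed more within itself than the shPkm1 pair. The low-count filter removed it, so it has no test in the main fit. Without the filter (16368 genes) its log2 fold change was -1.82 in shPkm1 (95% interval -3.27 to -0.36, edgeR adjusted p 0.0363) and -1.27 in the shPkm2-labelled libraries (-2.60 to 0.06, edgeR adjusted p 0.104). Between the Pkm hairpin groups it was 0.55 (-1.09 to 2.18, edgeR adjusted p 0.613). These intervals are wide. The log2 ratio of group mean CPM (counts scaled to library size), -1.90 in shPkm1 and -1.32 in the shPkm2-labelled libraries, moved to -0.94 and -0.36 without shScr library 1.

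The number of factors called can be set beside all genes. In shPkm1 against shScr, 2 of the 4 were called, both lower; of all tested genes 63.1% were called, 31.4% lower and 31.8% higher. Myf5, not called, had an unadjusted 95% interval of 0.02 to 0.49 there. In the shPkm2-labelled libraries against shScr, 2 were lower and 1 higher, where 68.0% of tested genes were called, 34.2% lower and 33.9% higher. Directly between shPkm2-labelled and shPkm1 libraries 2 were again lower and 1 higher, where 53.0% were called, 27.3% lower and 25.7% higher. With so many genes called, the count of factors does not stand apart, and their sizes and directions carry the description. The comparisons with shScr share the control libraries. In these bulk libraries fewer cells with a transcript and less of it per cell cannot be told apart.

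**Figure D2:**
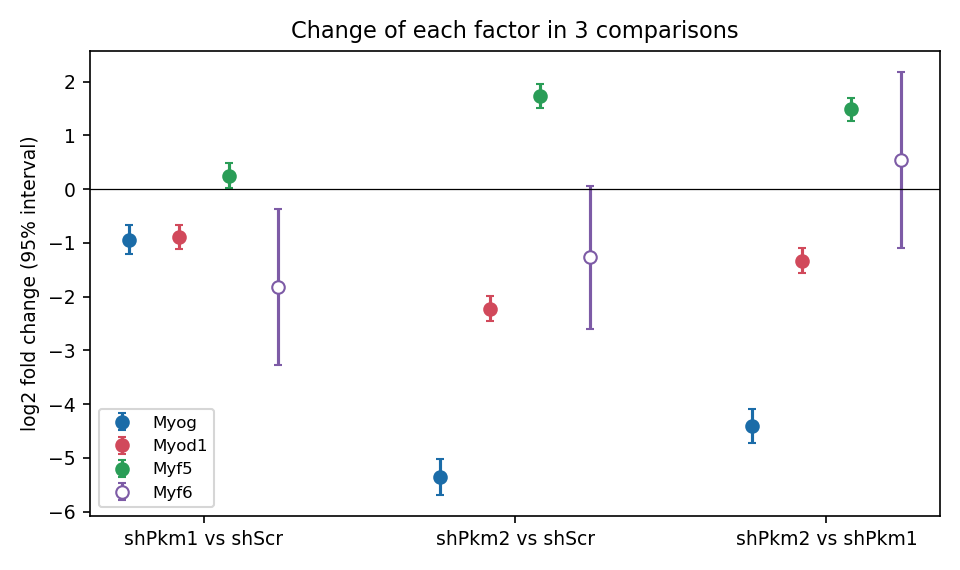
log2 fold change of each factor (vertical axis) with its 95% interval in the 3 comparisons; filled points are from the main edgeR fit and open points for Myf6 from the fit without the low-count filter. Myog has the lowest value of the factors in the main fit in each comparison, down to -5.35, and Myf5 lies above 0 in each. In shPkm1 against shScr Myog lies close to Myod1 (-0.94 and -0.90), and their order turned without shScr library 1 (-0.82 and -0.83). The open point of Myf6 is lower there (-1.82).

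The order of the factors within a library and the ratios between them do not depend on how libraries are scaled, but they do depend on the scaling to transcript length that TPM applies. By TPM, all 4 libraries of shScr and shPkm1 had the order Myog, Myod1, Myf5, Myf6. In both shPkm2-labelled libraries the order was Myod1, Myog, Myf5, Myf6. Neighbours in that order were close there: 84.3 and 91.6 TPM for Myod1, 67.2 and 73.5 for Myog and 59.4 and 54.1 for Myf5, without overlap between neighbours. By counts, which are not per length, Myog and Myf5 changed places in both of these libraries, with 1045 and 1192 counts for Myog and 1326 and 1269 for Myf5, while Myod1 stayed first with 1661 and 1881. Summed over the 4, the level was 2433 and 2371 TPM in shScr, 1665 in each shPkm1 library, and 211 and 219.7 in the shPkm2-labelled libraries.

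The ratio of Myog to Myod1 was almost the same in shScr and shPkm1 and inverted in the shPkm2-labelled libraries. The log2 ratio was 2.80 ± 0.0752 (SD, n = 2) in shScr and 2.76 ± 0.0323 in shPkm1, that is 6.96 and 6.78 Myog transcripts per Myod1 transcript, and those groups overlapped. It was -0.32 ± 0.00638 in the shPkm2-labelled libraries, or 0.799 Myog per Myod1. The difference between shPkm1 and shScr was -0.04, within the spread of the libraries, while the ratio was 8.71-fold lower in the shPkm2-labelled libraries than in shScr. An exact permutation of 2 libraries against 2 cannot give a two-sided p below 0.333, so the ratios are given without a claim of significance. Among 18 differences between groups, each of the 14 without overlap had that p. The other 4 had an exact permutation p of 0.667. How often groups separate in other genes or pairs of genes was not counted, so absence of overlap is not a trait of these factors.

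Myf5 gained on both of the other factors. The control held 24.1 Myod1 transcripts per Myf5 transcript, shPkm1 10.9 and the shPkm2-labelled libraries 1.55, with log2 ratios of Myf5 to Myod1 of -4.59 ± 0.115, -3.45 ± 0.111 and -0.63 ± 0.179 (SD, n = 2 each). These 3 groups did not overlap, and since a ratio is free of the library scaling, the step of 1.14 between shScr and shPkm1 does not depend on the library scaling. Against Myog the shift was larger: 167.5 Myog per Myf5 in shScr, 73.8 in shPkm1 and 1.24 in the shPkm2-labelled libraries, all by TPM. The last of these is below 1 by counts, where Myf5 exceeded Myog. Ratios with Myf6 rest on 3 to 18 counts; its log2 ratio to Myod1 was -8.59 ± 0.986, -9.44 ± 0.427 and -7.52 ± 0.612 in the same order, and the control overlapped each Pkm hairpin group.

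**Figure D3:**
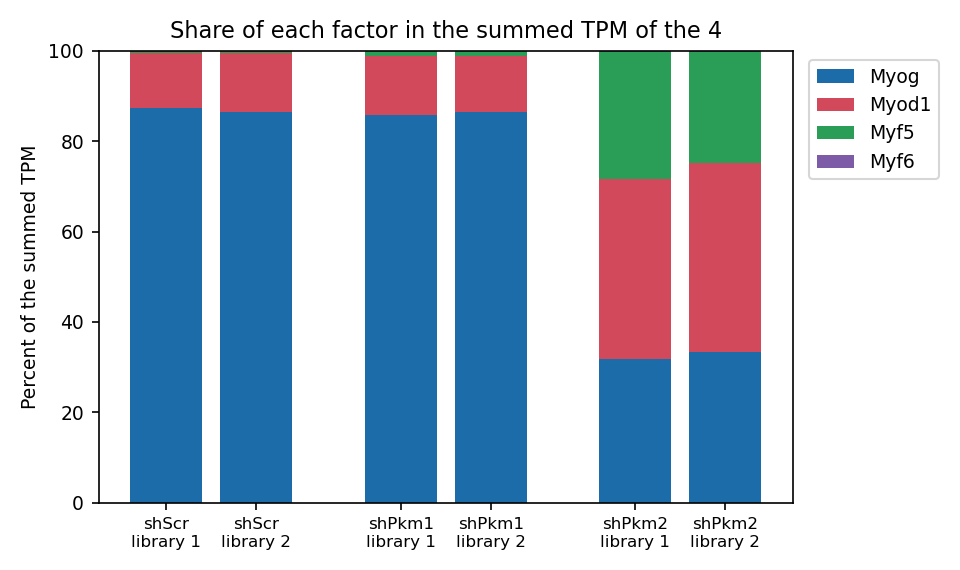
Percent of the summed TPM of the 4 factors (vertical axis, stacked bars) taken by each factor in each library; Myf6 is too small to see. Myog takes 85.9% to 87.4% in the libraries of shScr and shPkm1 and 31.8% and 33.5% in those labelled shPkm2, where Myf5 takes 28.1% and 24.7%.

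As shares of that sum, Myod1 held between 12.1% and 12.9% in the 4 libraries of shScr and shPkm1, and 39.9% and 41.7% in those labelled shPkm2. Myf5 held 0.475% and 0.567% in shScr and 1.25% and 1.09% in shPkm1. The share of Myf6 stayed under 0.3% in every library, with a highest value of 0.293%.

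Genes that work with the factors were read from lists. The E proteins Tcf3, Tcf4 and Tcf12 are their dimer partners. Tcf4 (log2 fold change 0.61, edgeR adjusted p 0.000162) and Tcf12 (0.57, edgeR adjusted p 0.000190) rose in shPkm1, where Tcf3 had 0.00 (edgeR adjusted p 0.996; 0.39 and limma adjusted p 0.00849 on log2(TPM + 1)). All 3 rose in the shPkm2-labelled libraries, Tcf3 by 0.61, Tcf12 by 0.38 and Tcf4 by 0.37 (edgeR adjusted p 9.29e-05, 0.00314 and 0.00563), the last call being lost without shPkm2 library 1 (0.31, edgeR adjusted p 0.0651). In the direct contrast Tcf3 was the 1 of 3 that passed, at 0.61 (edgeR adjusted p 0.000148). Tcf4 had -0.25 there (edgeR adjusted p 0.0531) and was called lower in some other settings, for example in a fit of only the groups compared (edgeR adjusted p 0.0127). Over all tested genes 63.1%, 68.0% and 53.0% were called in the 3 comparisons, and 31.8%, 33.9% and 25.7% were higher.

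Of 16 coactivators and Mef2 partners 15 were tested. In shPkm1 4 were higher and 7 lower (median log2 fold change -0.15, against 0.00 for all tested genes), and in the shPkm2-labelled libraries 5 were higher and 6 lower (median 0.12, against 0.01). In the direct contrast 6 were higher and 4 lower (median 0.17, against 0.00). The called members, 11, 11 and 10 of 15, lie near the shares called over all tested genes, 63.1%, 68.0% and 53.0%. The count of 10 fell to 5 without shPkm1 library 2 or shPkm2 library 1. The Mef2 factors, which bind with the E-box factors at muscle genes, included the largest falls of this list. Mef2d fell by 0.89 in shPkm1 and by 1.53 in the shPkm2-labelled libraries (edgeR adjusted p 3.74e-06 and 1.30e-08), and Mef2a fell by 1.19 in the latter (edgeR adjusted p 2.60e-07) with -0.15 in shPkm1 (edgeR adjusted p 0.192), a value that was positive with library totals (0.04). Mef2c had 367 and 97 counts in shScr, 57 and 58 in shPkm1 and 5 and 4 in the shPkm2-labelled libraries. Its log2 fold changes of -2.25 and -6.02 (edgeR adjusted p 0.00112 and 6.67e-06) moved to -0.88 and -4.64 without the first control library and to -2.96 and -6.73 without the second. Smarcd3, the SWI/SNF subunit that associates with Myod1, fell by 0.85 and 0.97 (edgeR adjusted p 9.99e-06 and 1.87e-06). The homeodomain gene Meis1 rose by 1.05 in the shPkm2-labelled libraries (edgeR adjusted p 0.000126). Smarca4, the SWI/SNF ATPase, had -0.45 in shPkm1 and 0.32 in the shPkm2-labelled libraries (edgeR adjusted p 0.00380 and 0.0233), and 0.77 in the direct contrast (edgeR adjusted p 8.06e-05). Its shPkm1 call was lost with library totals (-0.26), without shPkm1 library 1 (-0.33) and on TPM (-0.06), and its call in the shPkm2-labelled libraries without shScr library 1 or shPkm2 library 1 (0.24 each).

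**Figure D4:**
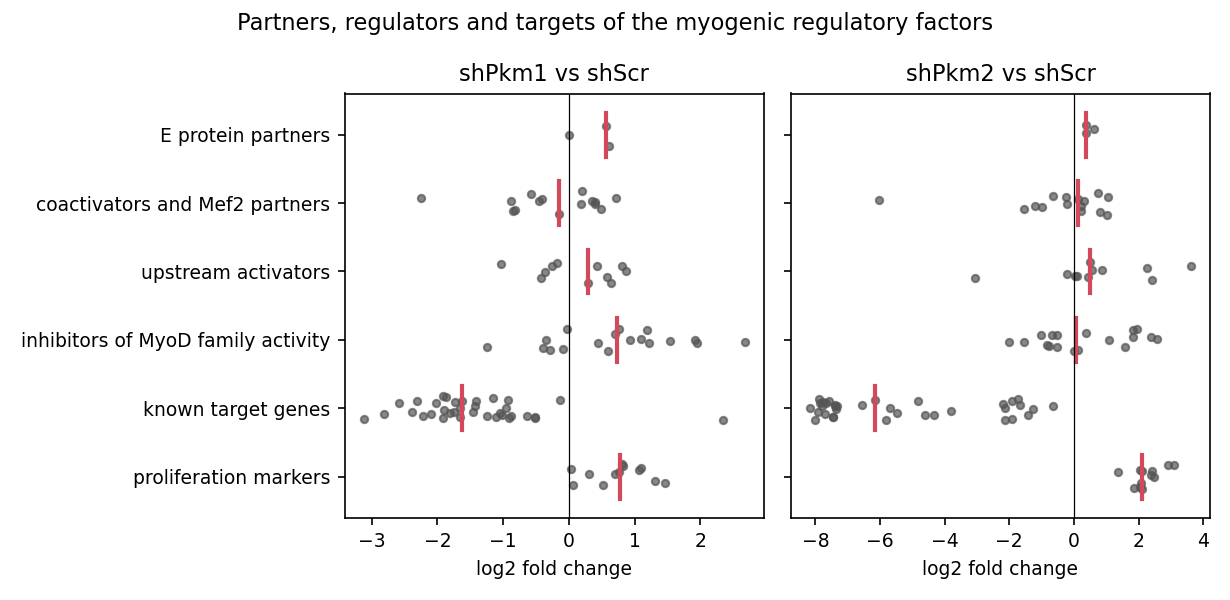
log2 fold change (horizontal axis, a separate range in each panel) of every tested member of 6 gene lists, 1 point per gene, in shPkm1 (left) and the shPkm2-labelled libraries (right) against shScr; red bars are list medians. The known target genes lie lowest, with medians of -1.62 and -6.14, and proliferation markers highest in the right panel, with a median of 2.10.

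Of 12 genes that act upstream of the factors 11 were tested, 6 higher and 2 lower in shPkm1 (median 0.28) and 7 higher and 1 lower in the shPkm2-labelled libraries (median 0.49); in the direct contrast it was 5 higher and 1 lower (median 0.25). The medians of all tested genes were 0.00, 0.01 and 0.00, and the 8, 8 and 6 of 11 called lie near the shares of 63.1%, 68.0% and 53.0% called over all genes. The count of 8 in shPkm1 fell to 5 without shPkm1 library 2. The homeodomain gene Six4 had 0.42 and 0.49 (edgeR adjusted p 0.0122 and 0.00450), both calls being lost without 1 library (0.28, edgeR adjusted p 0.0543, without shScr library 1; 0.35, edgeR adjusted p 0.108, without shPkm1 library 1; 0.37, edgeR adjusted p 0.0690, without shPkm2 library 1). Eya1, a transcriptional coactivator gene, led the rises in shPkm1 (0.86, edgeR adjusted p 0.00134). Among genes averaging at least 50 counts, the kinase gene Map2k6 led them in the shPkm2-labelled libraries (2.42, edgeR adjusted p 2.25e-07) and in the direct contrast (1.61, edgeR adjusted p 7.05e-06). The surface receptor Cdon had 0.28 in shPkm1 (edgeR adjusted p 0.0249), a call lost without shScr library 1 (0.21) or either shPkm1 library (0.24 and 0.33), and 0.10 in the shPkm2-labelled libraries (edgeR adjusted p 0.372; 0.43 and called with library totals). Pax7, the satellite cell factor, had 41 and 27 counts in shScr, 41 and 25 in shPkm1 and 4 and 6 in the shPkm2-labelled libraries (-3.08 against shScr, edgeR adjusted p 9.71e-05). Pax3, of the same list, went the other way, from at most 1 count in each shScr and shPkm1 library to 17 in each shPkm2-labelled library.

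Of 21 inhibitors of the factors 18 were tested. They moved both ways, 12 higher and 4 lower in shPkm1 (median 0.73) and 7 higher and 8 lower in the shPkm2-labelled libraries (median 0.07). The direct contrast had 7 higher and 11 lower (median -0.41). Over all tested genes 63.1%, 68.0% and 53.0% were called, with medians of 0.00, 0.01 and 0.00. The Id proteins tie up E proteins in dimers that cannot bind DNA. Of the 4 Id genes, Id1, Id2 and Id3 were higher in both Pkm hairpin groups, and Id4, with at most 2 counts in any library, was not tested. Id1 had 171 and 262 counts in shScr, 350 and 403 in shPkm1 and 917 and 1014 in the shPkm2-labelled libraries, with log2 fold changes of 0.60 and 1.83 (edgeR adjusted p 0.00304 and 1.02e-07). Id2 rose by 1.91 and 2.58 (edgeR adjusted p 5.39e-07 and 1.11e-08), and Id3 by 1.19 and 2.38 (edgeR adjusted p 0.000157 and 1.96e-07). Id3 stood at 313 and 632 counts in the control pair.

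Among the other inhibitors named by rule, Mdfi, whose product binds the factors and holds them out of the nucleus, had 24 and 15 counts in shScr, 139 and 150 in shPkm1 and 2 and 10 in the shPkm2-labelled libraries. Its log2 fold change was 2.67 in shPkm1 (edgeR adjusted p 1.60e-05), -2.02 in the shPkm2-labelled libraries (edgeR adjusted p 0.00445; -1.28 and -3.55 without one or the other of them) and -4.69 between the Pkm hairpin groups (edgeR adjusted p 6.06e-07; -3.96 and -6.23). Hey1, a Notch target, had -0.03 in shPkm1 (edgeR adjusted p 0.868), or 0.16 with library totals. It fell by 1.03 in the shPkm2-labelled libraries (edgeR adjusted p 0.000143). Outside the naming rule, the Notch targets Heyl and Hes1 of the same list rose by 1.545 and 1.10 in shPkm1 (edgeR adjusted p 1.385e-07 and 1.332e-05). In the shPkm2-labelled libraries Heyl had -1.543 and Hes1 0.01 (edgeR adjusted p 3.595e-07 and 0.958). Msc had 12 to 46 counts per library, with -1.24 in shPkm1 (edgeR adjusted p 0.00658; -1.06 and 0.0615 without shPkm1 library 2) and 0.37 in the shPkm2-labelled libraries (edgeR adjusted p 0.272; 0.49 and called on log2(TPM + 1)). Among inhibitors averaging at least 50 counts, the largest fall in shPkm1 was in the histone deacetylase gene Hdac5 (-0.39, edgeR adjusted p 0.00397), which was lost with library totals (-0.19), without shPkm1 library 1 (-0.30) and on TPM, where it was 0.03. At the same minimum the histone methyltransferase gene Suv39h1 led the rises in the direct contrast (1.43, edgeR adjusted p 6.13e-07), with -0.35 in shPkm1 and 1.07 in the shPkm2-labelled libraries (edgeR adjusted p 0.0273 and 4.73e-06). The shPkm1 call of Suv39h1 was lost with library totals (-0.16), in a fit of only the groups compared (-0.34), without shScr library 2 (-0.14) or either shPkm1 library (-0.32 and -0.38), and the value was positive on TPM (0.05). Twist1 was not tested, with at most 1 count in any library.

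Of 35 known target genes of the factors, all were tested. In shPkm1 33 were lower and 1 higher, with a median log2 fold change of -1.62. In the shPkm2-labelled libraries all 35 were lower, with a median of -6.14, and in the direct contrast 34 were lower, with a median of -4.82. Of all tested genes 31.4%, 34.2% and 27.3% were lower. The factors Myod1 and Myog themselves are not in this list.

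The sizes of these falls were uneven among the targets named by rule. Chrna1, the acetylcholine receptor's alpha subunit, had 20482 and 23825 counts in shScr, 13185 and 13737 in shPkm1 and 7383 and 7549 in the shPkm2-labelled libraries, with log2 fold changes of -0.92 and -1.90 (edgeR adjusted p 8.58e-06 and 6.40e-09). Cdh15, the muscle cadherin, had -0.64 and -1.43 (edgeR adjusted p 0.000294 and 1.57e-07), and the filament gene Des -0.51 and -2.13 (edgeR adjusted p 0.00454 and 1.88e-08). The shPkm1 calls of Cdh15 and Des were lost on TPM (limma, -0.24 and -0.12, adjusted p 0.104 and 0.339), and that of Des also without shPkm1 library 1 (-0.41, edgeR adjusted p 0.0910). Ckm, muscle creatine kinase, had 37770 and 23731 counts in shScr, 4358 and 5969 in shPkm1 and 152 and 123 in the shPkm2-labelled libraries, with log2 fold changes of -2.81 and -8.16 (edgeR adjusted p 3.10e-07 and 8.39e-11). Mymk, the fusion protein, had -1.41 and -7.36 (edgeR adjusted p 7.75e-07 and 3.66e-12). By the naming rule the largest fall in shPkm1 was in the ankyrin repeat gene Ankrd2 (-3.12, edgeR adjusted p 8.14e-09).

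Cell cycle inhibitors in the list split in shPkm1. Cdkn1a, which is induced as myoblasts leave the cycle, had -0.89 in shPkm1 and -3.81 in the shPkm2-labelled libraries (edgeR adjusted p 4.82e-05 and 8.40e-11). Cdkn1c had 272 and 117 counts in shScr, 1147 and 1155 in shPkm1 and 8 and 3 in the shPkm2-labelled libraries. It was the 1 target that rose in shPkm1 (2.34, edgeR adjusted p 7.22e-06; 3.17 without shScr library 1) and had -7.80 between the Pkm hairpin groups (edgeR adjusted p 1.28e-08; -8.65 without shPkm2 library 1).

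Most proliferation markers moved in the opposite direction to Myog and Myod1. Of 12, 10 were higher in shPkm1 (median 0.78), and all 12 in the shPkm2-labelled libraries (median 2.10) and in the direct contrast (median 1.43), where 31.8%, 33.9% and 25.7% of all tested genes were higher. Mki67, the standard marker of cycling cells, rose by 1.46 and 2.90 (edgeR adjusted p 5.43e-07 and 5.31e-10), Bub1, of the spindle checkpoint, by 3.10 in the shPkm2-labelled libraries (edgeR adjusted p 1.00e-10), and Cdk1 by 1.81 between the Pkm hairpin groups (edgeR adjusted p 1.71e-08). The 2 not called in shPkm1 were Cdk1 (0.06, edgeR adjusted p 0.650) and Mcm2 (0.03, edgeR adjusted p 0.821). The part of cycling cells in the levels of the 4 factors was not tested.

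Of 25 markers of fibroblasts, adipocytes, bone or cartilage cells, endothelial cells and immune cells, 22 had values and 7 passed the filter. Their summed TPM was 39.9 and 54.7 in shScr, 114 and 103 in shPkm1 and 99.1 and 90.8 in the shPkm2-labelled libraries, with 10 to 13 of the 22 at 3 counts or fewer in each library. Tcf21 and Ibsp were at 0 in every library, and Adipoq, Plin1, Thy1 and Acan had at most 1 count. Among those tested 6 were higher and 1 lower in shPkm1, 5 higher and 1 lower in the shPkm2-labelled libraries, and 1 higher and 2 lower in the direct contrast, beside 63.1%, 68.0% and 53.0% called over all genes. Pdgfra, the receptor of fibroblast-like cells, rose by 2.30 and 2.46 (edgeR adjusted p 3.75e-08 and 7.35e-09). The matrix gene Dcn rose by 1.00 in shPkm1 (edgeR adjusted p 8.85e-05), fell by 1.11 in the shPkm2-labelled libraries (edgeR adjusted p 5.67e-05) and had -2.10 in the direct contrast (edgeR adjusted p 1.71e-07). Sox9 had -0.31 in shPkm1 (edgeR adjusted p 0.0200), a call lost with library totals (-0.11) and without either shPkm1 library (-0.27 and -0.34), and positive on TPM (0.08); it had 0.81 in the shPkm2-labelled libraries (edgeR adjusted p 1.01e-05) and 1.11 in the direct contrast (edgeR adjusted p 9.28e-07). The part of these genes in the results for the 4 factors was not tested.

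The genes with the most similar pattern over the 6 libraries were found for each factor among the 10950 genes that averaged 50 counts or more. The measure was the Euclidean distance between log2 CPM profiles, each centred on its own mean. Closest to Myod1 were Hspb8, a small heat shock protein gene (distance 0.173), Fitm2 (0.213) and Rab3il1 (0.221). Hspb8 had 294 and 237 CPM in shScr, 145 and 149 in shPkm1 and 57.9 and 61.3 in the shPkm2-labelled libraries.

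Closest to Myf5 were Jade3 (0.158), the nuclear pore gene Ndc1 (0.172) and Racgap1, which acts in cytokinesis (0.189). Racgap1 had 95.4 and 101 CPM in shScr, 127 and 122 in shPkm1 and 320 and 297 in the shPkm2-labelled libraries. Closest to Myog were the kinase gene Mylk4 (0.382), Srl, which encodes a calcium-binding protein of the sarcoplasmic reticulum (0.481), and Rap1gap2 (0.526). Srl had 1079 and 896 CPM in shScr, 379 and 373 in shPkm1 and 18.2 and 19.9 in the shPkm2-labelled libraries.

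For Myf6, whose profile rests on 3 to 18 counts, the distances were larger: 0.595 to Proser2, 0.658 to Exoc6 and 0.686 to Ksr1. Between the factors themselves the distance was 3.58 for Myod1 and Myog, 4.08 for Myod1 and Myf5 and 7.59 for Myf5 and Myog. These exceed the distances of up to 0.526 between these 3 factors and their closest genes.

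**Figure D5:**
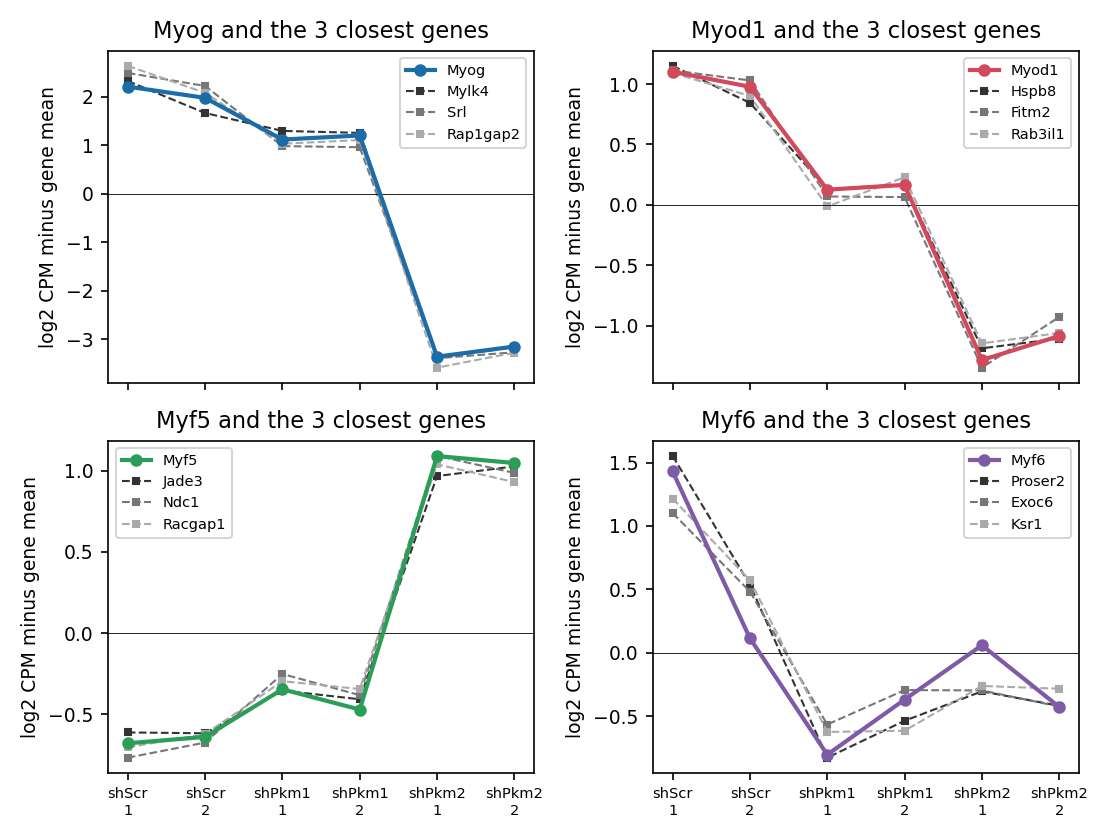
log2 CPM minus the gene's own mean (vertical axis) over the 6 libraries (horizontal axis) for each factor (thick line) and its 3 closest genes (dashed lines). The lines of Myod1, Myf5 and Myog are nearly covered by those of their closest genes, at distances of 0.158 to 0.526, while those of Myf6 lie further apart.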

How the data were processed

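The 6 RNA libraries of C2C12 cells were prepared by a commercial provider from TRIzol-extracted total RNA, per the labels' protocols. Per the submitters' processing notes the build was mm10, and HISAT, StringTie, Bowtie, RSEM and DESeq2 were named without roles or versions. The authors deposited estimated counts per transcript, not normalized, with TPM and FPKM beside them, for 57920 transcripts, per the file headers. The authors' TPM and FPKM are scaled to transcript length and library size. A further 9 columns of the authors' means were not used.

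Estimated counts, TPM and FPKM were summed by NCBI gene number (17558 genes, 17445 with a RefSeq symbol) and counts rounded. The 12643 genes passing filterByExpr (minimum count 10, minimum total 15) were tested in edgeR 4.0.16 (R 4.3.3) with TMM scaling, 1 coefficient per group over all 6 libraries, the quasi-likelihood F-test, p-values adjusted over the whole table by Benjamini-Hochberg and a two-sided threshold of 0.05. The biological coefficient of variation was 0.0851. An SE is the fold change (log2) over the square root of its F statistic; intervals are unadjusted. Counts of 3 or fewer were treated as the floor. The fit was also run on simulated counts in which few genes changed, in shPkm1 only. That setting differs from these data, where most tested genes were called, so it does not check the calls made here. Ratios and shares used TPM and have no test across genes.

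The members and lists were chosen with earlier results of these data known. Tcf21 is in both the inhibitor and the cell marker list. Genes named are the members, fixed genes of each list, the largest called rise and fall per list and comparison with a mean of at least 50 counts, and the 3 closest genes per member; some genes that the rule names are not reported here. Alternatives used DESeq2 1.42.0 and limma 3.58.1 on log2(TPM + 1) and log2(TPM + 0.1), other scalings and filters, and left out each library.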

Additional observations from a re-analysis of the deposited data

How the results depend on the processing

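The calls of Myod1 and Myog in all 3 comparisons, and of Myf5 in those with the libraries labelled shPkm2, kept direction and side of the threshold under every scaling, filter, tool and left-out library tried. Myf5 in shPkm1 against shScr passed the threshold with library totals (0.45, adjusted p 0.00570), a mean of at least 50 counts (0.26, 0.0493), and limma on log2(TPM + 1) (0.60) or log2(TPM + 0.1) (0.64, 0.00143), but not with DESeq2 (adjusted p 0.142). Library totals moved the median of all genes by 0.19, 0.33 and 0.13 in the 3 comparisons. The shPkm1 value of Myf6, which has few counts, moved to -0.48 on log2(TPM + 1) and was -1.13 on log2(TPM + 0.1). With a pseudocount of 1 its log2 ratios to Myod1 were -7.36, -7.34 and -5.90 in shScr, shPkm1 and shPkm2. In the same order they were -10.16, -10.10 and -5.58 to Myog and -2.88, -3.96 and -5.28 to Myf5. With 0.1 the ratio to Myog in shPkm1 was -11.79.

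With counts in place of TPM, which are not per length, shares were 15.3%, 15.5% and 42.2% for Myod1, 0.721%, 1.62% and 31.0% for Myf5 and 84.0%, 82.9% and 26.6% for Myog. The replicate numbers pair nothing in the labels (correlations of deviations -0.0256 to 0.0527); with the replicate number as a block, genes called were 7922, 8566 and 6682 against 7984, 8602 and 6703, and no member changed its call. E proteins called in the direct contrast were 2 in place of 1 with DESeq2 size factors, a mean of at least 50 counts or only the groups compared, the second being Tcf4, lower, and other cell markers in shPkm1 11 without the filter. Leaving out a library, with the lone library left assumed to vary like the other groups, gave 5 to 8 upstream activators in shPkm1, and in the direct contrast 5 to 11 coactivators (10 with all libraries) and 1 to 2 E proteins.

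The lists and other named genes were put through the same alternatives after the data had been seen. Of 1136 refits of other named genes, 1068 kept direction and call, 31 lost it, 16 gained it and 21 changed sign. The sign changes were Tcf3 in shPkm1 (-0.00216 with DESeq2 size factors, -0.00215 with DESeq2, -0.0107 without shScr library 1; leaving out any 1 library gave -0.0701 to 0.0782), Mef2a (0.0438 with library totals, 0.24 on either TPM scale), Pax7 (-0.68 to 0.17 leaving out a library, positive without shScr library 1 or shPkm1 library 2; 0.0715 and 0.17 on TPM), Hey1 (0.16 with library totals, -0.20 to 0.12 leaving out a library, positive without shPkm1 library 2, 0.31 and 0.34 on TPM), Hdac5 (0.0300 and 0.0306 on TPM), Sox9 (0.0804 and 0.0856 on TPM) and Suv39h1 (0.0494 and 0.0536 on TPM). The cause was not tested.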
